A study of Mus musculus with 22 samples.

Results

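Gene expression was compared between Ts1Cje and wild-type (WT) mice in the hippocampus alone, on the 11 arrays whose titles name this region, out of 22 arrays in all. The other 11 arrays hold the cortex of the same 11 animals. The animals were 6 Ts1Cje females and 5 WT female littermates, aged 8 to 10 weeks, from a line kept by crossing Ts1Cje males to C57Bl/6J females. Each mouse gave 1 array of its hippocampus, so n counts animals. Frozen tissue was extracted with the NucleoSpin RNA II kit, and RNA with an integrity number above 9 was hybridised to Affymetrix mouse gene ST 1.0 arrays. The study asked which genes and pathways change in the Ts1Cje brain.

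The Ts1Cje mouse models Down syndrome in part. Its distal chromosome 16, which holds many of the genes of human chromosome 21, is present in an extra copy joined to the end of chromosome 12, and the junction is known to remove a stretch of distal chromosome 12 from the rearranged chromosome. All Ts1Cje animals therefore carried both changes, and no group of these samples carried only the extra segment. The gene for superoxide dismutase Sod1 lies just outside the extra segment and was disrupted by targeting when the line was made. The hippocampus encodes new memories through a circuit from the granule neurons of the dentate gyrus to the pyramidal neurons of CA3 and CA1, and adds new granule neurons in adult life. The samples were whole tissue, in which fewer cells of a type and less RNA per cell cannot be told apart.

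Values are log2 signals, 1 per array and gene, and a difference is always Ts1Cje minus WT on this scale, so that 1 unit is a doubling. The 20239 genes with a symbol were tested with limma, a linear model with a shared estimate of spread, and a gene was called at a Benjamini-Hochberg adjusted p under 0.05. The segment was taken as the protein-coding genes of chromosome 16 after Sod1 up to Zbtb21, 72 in the reference gene table, of which 69 were measured. The array medians ranged from 6.91 to 6.95, and the number of arrays limits the precision. Animal 60 (WT) and animal 64 (Ts1Cje) had arrays that stood apart: their log2 values spread less over genes (SD 2.06 and 1.98, against 2.14 to 2.19 on the other 9 arrays), and their median correlation with the others was 0.991 and 0.985, against 0.995 to 0.996. Results are given with all animals and, where it matters, without these animals. The tissue label was checked on marker genes, with each array set against its own median. All 8 measured markers of CA1 neurons and 11 of 12 of dentate granule neurons were higher in hippocampus than in cortex, and 3 of 9 markers of neocortical projection neurons were. The mean over segment genes, a check of the genotype labels, lay between 7.61 and 7.63 on the WT arrays and between 7.84 and 7.90 on the Ts1Cje arrays, without overlap.

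Of the 20239 genes, 23 were called, 21 higher in Ts1Cje (0.104%) and 2 lower (0.00988%). Among them 17 were segment genes, all higher. Of the 6 outside it, the axonemal dynein gene Dnah11 and Sod1 rose most, the integrin gene Itgb8 and the membrane protein gene Tmem196 fell, and Fsbp and Vmn2r110 rose from low signals. The largest change was 8.70-fold (Dnah11), and segment genes rose 1.21-fold (Pcp4) to 1.39-fold (Dscam). The number called depended on single animals. Without Ts1Cje animal 64 it was 35, and without Ts1Cje 63 it was 8. It was 4 without WT 60 and 2 without WT 95 or Ts1Cje 94. It was 1 without WT 62, 65 or 98, or without Ts1Cje 61, 87 or 97. That 1 gene was Dnah11, called whichever animal was left out. The other 22 genes kept their sign in all 11 of these fits, with adjusted p values of at most 0.199. Without animals 60 and 64 together, 37 genes were called, 31 higher (0.153%) and 6 lower (0.0296%), 26 of them in the segment, and 20 of the 23 remained. Fsbp, Vmn2r110 and Scaf4 did not.

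The start regions of Dnah11, Itgb8, Tmem196 and Sod1 are shown first, because these 4 are the genes outside the segment that were called in both settings. Each line gives the 250 bases before the gene's start in the RefSeq table (build GRCm38.p6), in the gene's own 5′ to 3′ direction. Capitals mark matches, on either strand, to the GC box GGGCGG, the CCAAT box CCAAT or the TATA box TATAAA.
Dnah11 (chr12:118199044-118199293, minus strand): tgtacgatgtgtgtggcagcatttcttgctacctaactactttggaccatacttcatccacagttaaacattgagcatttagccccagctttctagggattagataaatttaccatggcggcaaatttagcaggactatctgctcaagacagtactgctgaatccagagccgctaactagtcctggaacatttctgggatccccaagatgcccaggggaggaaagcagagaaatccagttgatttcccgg
Itgb8 (chr12:119238277-119238526, minus strand): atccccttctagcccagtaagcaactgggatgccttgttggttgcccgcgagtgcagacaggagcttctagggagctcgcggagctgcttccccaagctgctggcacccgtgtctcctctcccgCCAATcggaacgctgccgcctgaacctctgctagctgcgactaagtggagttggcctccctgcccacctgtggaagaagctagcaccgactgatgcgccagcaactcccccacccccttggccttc
Tmem196 (chr12:119945877-119946126, plus strand): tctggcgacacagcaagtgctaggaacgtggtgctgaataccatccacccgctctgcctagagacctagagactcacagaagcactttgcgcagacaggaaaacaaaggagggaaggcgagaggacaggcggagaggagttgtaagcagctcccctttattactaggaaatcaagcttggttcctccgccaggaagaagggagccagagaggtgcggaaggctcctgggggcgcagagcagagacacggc
Sod1 (chr16:90220512-90220761, plus strand): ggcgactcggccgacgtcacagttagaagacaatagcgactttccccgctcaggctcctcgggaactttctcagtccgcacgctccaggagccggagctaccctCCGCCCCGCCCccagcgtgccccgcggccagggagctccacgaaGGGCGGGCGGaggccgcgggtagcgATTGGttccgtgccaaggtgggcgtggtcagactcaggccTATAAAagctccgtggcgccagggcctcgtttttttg
The stretches of Dnah11 and Tmem196 held none of these letters. That of Itgb8 held 1 CCAAT match. The Sod1 stretch held 4 GC boxes, which overlap in pairs, with 1 CCAAT match and 1 TATA match. Over the 27025 genes of the table, 32.9% of such stretches held a GC box, 34.5% a CCAAT match and 13.0% a TATA match. G and C made up 46% of the bases for Dnah11, 62.4% for Itgb8, 56.8% for Tmem196 and 66.4% for Sod1, against a median of 52% over all genes. A match describes letters and does not show that a factor binds there.

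Dnah11 encodes a heavy chain of the outer dynein arm that moves cilia, and was the most changed gene of the hippocampus. Its log2 signal was 6.13, 6.00, 5.79, 6.19 and 5.97 in the WT animals and ran from 9.01 through a median of 9.13 to 9.31 in the Ts1Cje animals. The groups were far apart, with every Ts1Cje array above the median gene (6.95) and every WT array below it. The difference was 3.12 (SE 0.0765, limma adjusted p = 9.25e-10), and it ranged from 3.06 to 3.16 when single animals were left out. Which part of the Dnah11 transcript the array reads is not known. The list of other axonemal dynein and motile cilia genes did not follow it: 9 of its 20 measured members were above 0, 0 were called and the median difference was -0.031, against -0.0064 over all genes.

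Itgb8 encodes the beta 8 subunit of an integrin that activates latent transforming growth factor beta. Its signal was 9.32, 9.64, 9.49, 9.50 and 9.57 in WT and 8.15, 8.77 and 8.91 as the lowest, median and highest Ts1Cje value. All Ts1Cje arrays lay below all WT arrays, animal 64 lowest. The difference was -0.81 (SE 0.121, limma adjusted p = 0.0375), a level 1.75-fold higher in WT, and it was -0.75 without animals 60 and 64. Of the 15 measured genes of the transforming growth factor beta list 0 were called, 2 were above 0 and the median was -0.061. Of the 19 other measured integrin genes, 0 were called and 7 were above 0.

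Tmem196, a membrane protein gene and the outermost of the 9 on chromosome 12, was at 8.03, 8.02, 8.07, 8.08 and 8.05 in WT and at 7.50, 7.65 and 7.75 (lowest, median and highest) in Ts1Cje. The WT arrays were nearly equal and every Ts1Cje array was lower, by 0.41 on average (SE 0.0512, limma adjusted p = 0.0209). Sp4, a transcription factor of neurons that binds GC boxes, was at 7.65, 7.87, 7.94, 7.85 and 7.90 in WT and from 7.07 through 7.54 to 7.64 in Ts1Cje. The groups did not overlap, but the lowest WT array, animal 60, was close to the highest Ts1Cje array. Its difference of -0.37 was not called with all animals (limma adjusted p = 0.617) and was called without animals 60 and 64 (-0.34, adjusted p = 0.027).

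The other 5 genes of distal chromosome 12 overlapped between the groups. They are Rapgef5 (-0.032), an exchange factor for small GTPases, the transcription factor Sp8 (-0.0059), the transporter Abcb5 (-0.099), Cdca7l (0.097) and Macc1 (0.14). Sp8, Abcb5, Cdca7l and Macc1 were below the median gene on every array, and Rapgef5 was well above it, at 9.30 to 9.45 in WT and 9.14 to 9.43 in Ts1Cje. The signs for Rapgef5 and Sp8 turned without animals 60 and 64. Of the 9 genes from Rapgef5 outwards, 1 was called higher and 2 lower, and Sp4, lower in every Ts1Cje animal, was called only without animals 60 and 64.

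**Figure D1:**
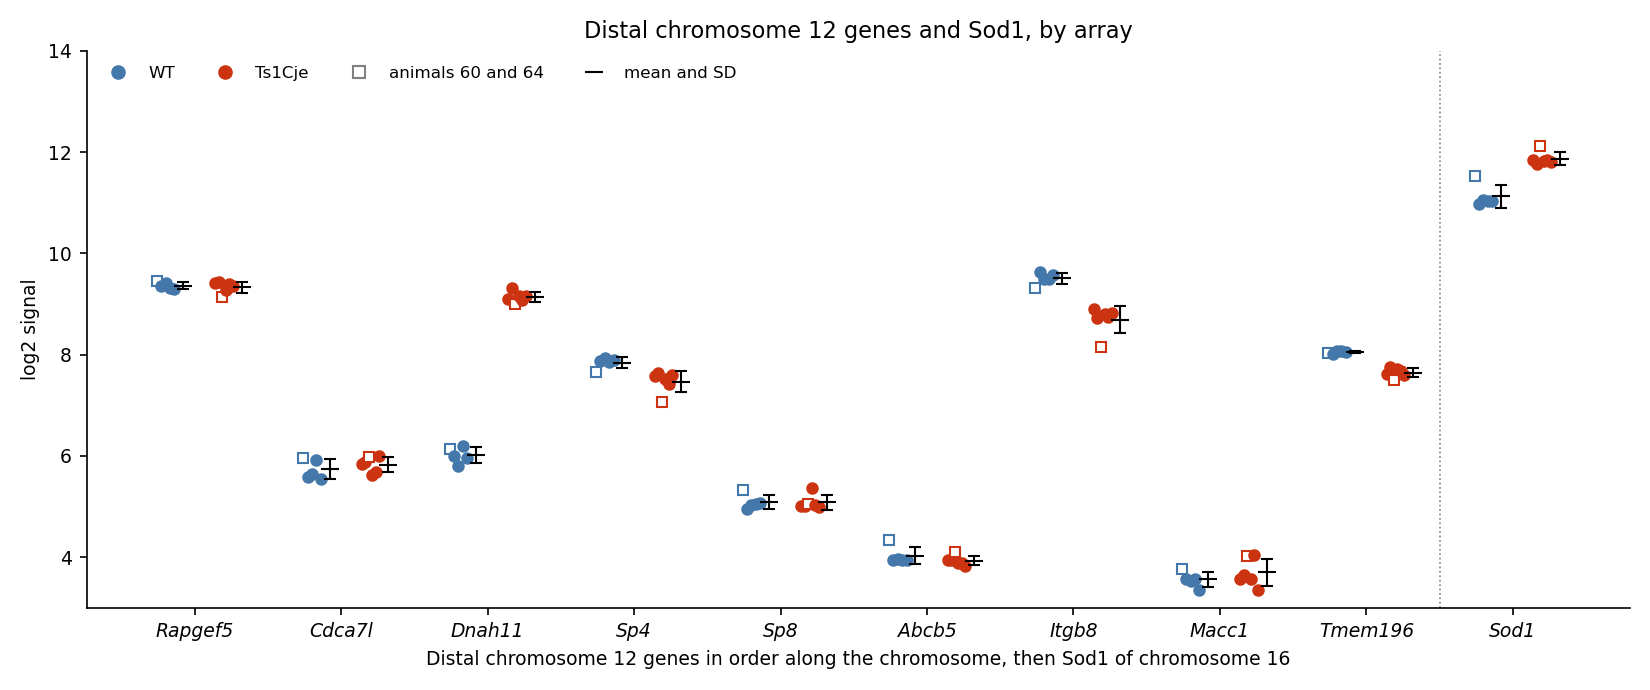
Log2 signal (y axis) of each array for the 9 genes of distal chromosome 12 in their order along it and for Sod1 of chromosome 16; blue points are the 5 WT and red points the 6 Ts1Cje animals, open squares are animals 60 and 64, and bars give mean and SD. Dnah11 stands at 9.01 to 9.31 in Ts1Cje against 5.79 to 6.19 in WT, while Sp4, Itgb8 and Tmem196 are lower in every Ts1Cje animal.

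Sod1, the copper and zinc superoxide dismutase, was at 11.52, 10.97, 11.06, 11.03 and 11.04 in WT and at 11.76, 11.83 and 12.12 (lowest, median and highest) in Ts1Cje. WT animal 60 and Ts1Cje animal 64 were the highest of their groups, and the groups still did not overlap. The signal in Ts1Cje was 1.67-fold that in WT (difference 0.74, SE 0.101, limma adjusted p = 0.0214), and the difference was 0.79 without both animals. This is a larger difference than that of any of the 69 segment genes. Which part of the Sod1 transcript the array reads is not known. Whether the signal comes from the disrupted copy, or goes with more working enzyme, was not tested. Of the 26 other measured genes of oxidative stress defence outside the segment, 0 were called and the median difference was -0.0285 (-0.011 without both animals). At the far end of the segment, the noncoding gene A630089N07Rik differed by 0.097 (limma adjusted p = 1), with a range of 8.09 to 9.23 in Ts1Cje that spanned the WT values of 8.58 to 9.02.

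In the segment as a whole, 68 of 69 genes were above 0, where 46.3% of all genes tested were. Without animals 60 and 64, 65 of 69 were, and the dim genes Erg, Kcnj15 (0.019 to -0.028) and Itgb2l (0.044 to -0.0057) were below 0 beside Sim2. Their median difference was 0.29, a fold of 1.22, with quartiles of 0.13 and 0.39. In 34 of the 69 all Ts1Cje arrays lay above all WT arrays, which held for 77 of all genes tested (0.38%); all Ts1Cje arrays lay below all WT arrays for 52 genes (0.257%), none of them in the segment. A ratio of 3 copies to 2 corresponds to a log2 difference of 0.58, and 0 of the 69 genes reached it, with all animals or without animals 60 and 64. Whether the array shows a ratio of this size in full was not tested.

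The size of the difference went with the brightness of the gene on the array. The 44 segment genes brighter than the median gene had a median difference of 0.36, all of them were above 0, 32 had groups without overlap and 17 were called. The 25 dimmer ones had a median of 0.10, 24 were above 0, 2 had groups without overlap and 0 were called. Over all genes tested the medians were -0.021 for bright and 0.020 for dim genes. Among the dim segment genes was Sim2, a transcription factor and the 1 member below 0 (-0.0515, limma adjusted p = 1). Whether dim genes rose less or the array measured low signals less well was not tested.

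**Figure D2:**
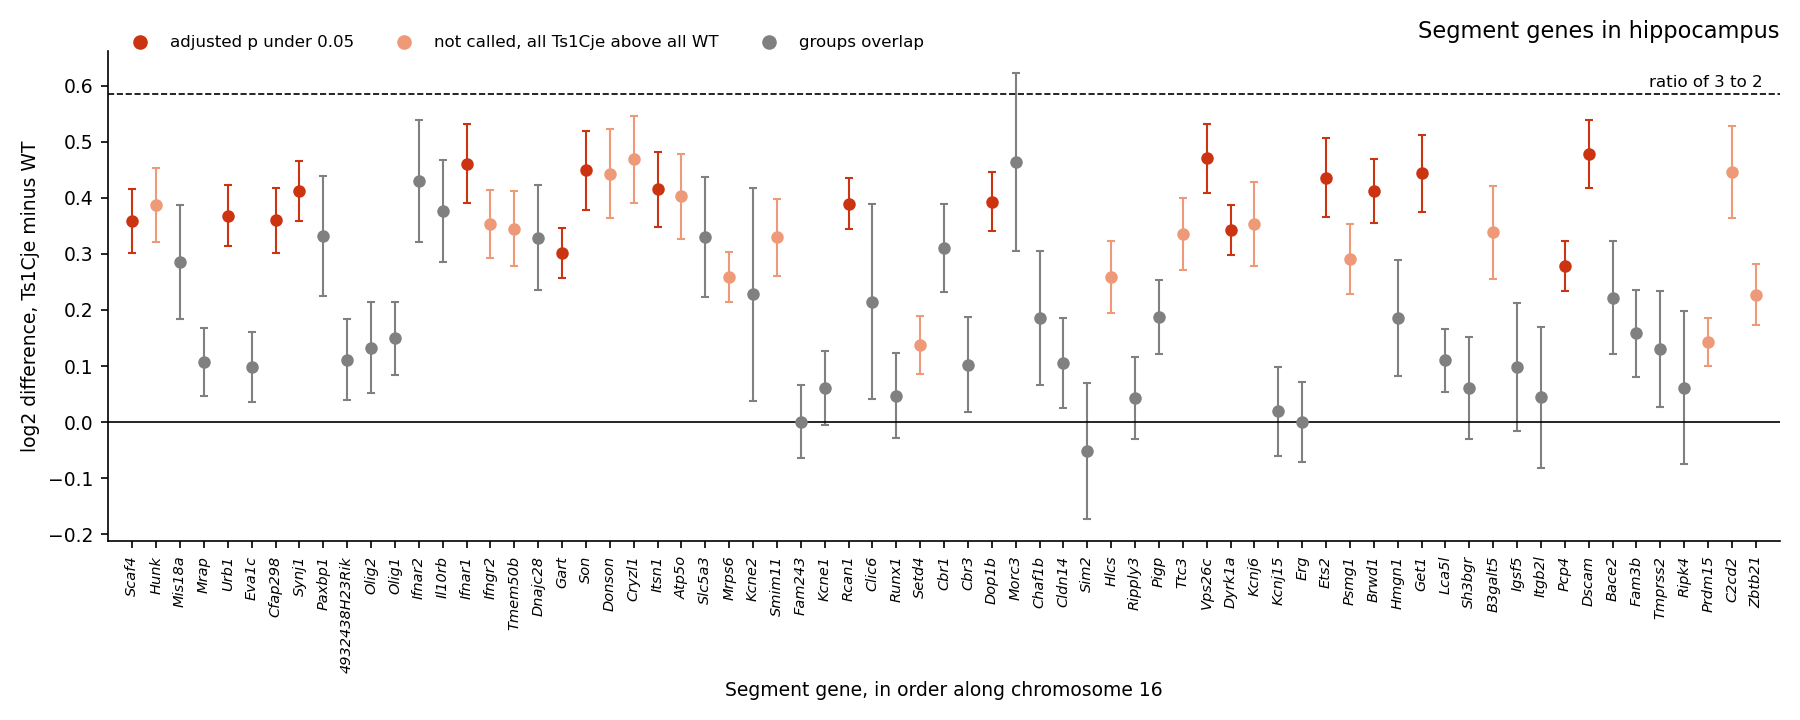
Log2 difference between Ts1Cje and WT with its standard error (y axis) for the 69 measured segment genes in their order along chromosome 16 (x axis); dark red marks called genes, light red genes that were not called but had all Ts1Cje arrays above all WT arrays, and grey the rest. The called genes are spread along the segment, all points lie below the dashed line for a ratio of 3 to 2, and Sim2 is the 1 gene below 0.

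Among segment genes known for roles at synapses and in neuronal signalling, Dscam, Synj1, Itsn1, Rcan1, Dyrk1a and Pcp4 rose, and Kcnj6, Bace2 and the potassium channel gene Kcnj15 were not called. These genes were grouped by their known roles and not by a set list. Dscam, an adhesion molecule by which neurites of a cell avoid each other, was at 9.39, 9.63, 9.62, 9.56 and 9.58 in WT and at 9.92, 10.03 and 10.15 (lowest, median and highest) in Ts1Cje. It had the largest difference of the segment, 0.48 (SE 0.0602, limma adjusted p = 0.0209). Synj1, the lipid phosphatase that strips clathrin from synaptic vesicles, went from 10.65, 10.75, 10.78, 10.79 and 10.81 to 11.01, 11.19 and 11.25. Itsn1, a scaffold of the same endocytic step, went from 9.33, 9.47, 9.43, 9.50 and 9.60 to 9.66, 9.91 and 9.96. In both genes Ts1Cje animal 64 was the lowest of its group and still above all WT animals. Their differences were alike, 0.41 for Synj1 and 0.42 for Itsn1. The 22 other measured genes of synaptic clathrin endocytosis had a median difference of -0.0016 (0.0049 without animals 60 and 64), 11 were above 0 and 0 were called.

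Rcan1 encodes a regulator of the phosphatase calcineurin, and Dyrk1a a kinase that acts against calcineurin on the transcription factors of the NFAT family. Rcan1 was at 8.41, 8.37, 8.38, 8.44 and 8.44 in WT and at 8.73, 8.78 and 8.90 (lowest, median and highest) in Ts1Cje. Dyrk1a was at 10.46, 10.47, 10.47, 10.44 and 10.41 against 10.72, 10.78 and 10.90. These were among the tightest groups of the segment, with WT SDs of 0.0321 and 0.0251. Rcan1 rose by 0.39 (SE 0.0456) and Dyrk1a by 0.34 (SE 0.0443), each with limma adjusted p = 0.0209. The 14 other measured genes of the calcineurin and NFAT list had a median of -0.021, with 4 above 0 and 0 called.

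Pcp4, a small calmodulin-binding protein and a marker of CA2 neurons, was at 12.12, 12.09, 12.02, 11.95 and 12.02 in WT and at 12.27, 12.32 and 12.36 in Ts1Cje. It had the smallest difference of the called genes, 0.28 (SE 0.0451, limma adjusted p = 0.0462). The 5 other measured CA2 markers had a median difference of -0.0355 (0.013 without animals 60 and 64), 2 were above 0, and 0 were called. Kcnj6, the inward rectifier potassium channel that opens after inhibitory receptors, was at 8.07, 8.34, 8.20, 8.02 and 8.23 in WT and at 8.41, 8.51 and 8.75 in Ts1Cje. The groups did not overlap, and the difference of 0.35 (SE 0.0751) was not called with all animals (limma adjusted p = 0.295) or without animals 60 and 64 (0.297). The 9 other potassium channels of its list outside the segment had a median of -0.014 (-0.042 without those animals), and 0 were called. Bace2, a protease related to the enzyme that cuts the amyloid precursor, was dim and overlapped, with a difference of 0.22 (limma adjusted p = 1).

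The segment holds a run of neighbouring cytokine receptor genes. Ifnar1, a subunit of the type I interferon receptor, was at 8.68, 8.80, 8.77, 8.72 and 8.84 in WT and at 8.96, 9.24 and 9.35 (lowest, median and highest) in Ts1Cje, and rose by 0.46 (SE 0.0706, limma adjusted p = 0.0395). Ifnar2, the partner subunit, was at 8.32, 8.60, 8.68, 8.52 and 8.54 against 8.53, 9.04 and 9.17. In 5 of 6 Ts1Cje animals Ifnar2 lay above all WT animals, and the exception was animal 64. The difference of 0.43 was not called with all animals (limma adjusted p = 0.58), and without animals 60 and 64 it was 0.46 and was called (0.0186). Ifngr2, of the interferon gamma receptor, differed by 0.35 with groups that did not overlap (adjusted p = 0.0664). Il10rb, of the interleukin 10 receptor, differed by 0.38 with 5 of 6 Ts1Cje animals above all WT (adjusted p = 0.488).

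Genes switched on by interferon, none of them in the segment, did not give a call. Of 37 measured members 32 were above 0, with a median difference of 0.12, 0 called and 1 at an unadjusted p under 0.05, where 2.02% of all genes were higher and 1.69% lower at that level. Of all genes dimmer than the median gene (6.95), 5962 of 10120 were above 0. The array means of the interferon list overlapped, at 6.64 to 6.87 in WT and 6.72 to 7.22 in Ts1Cje, with Ts1Cje animal 87 the highest. The 1 member was the class I histocompatibility gene H2-K1. It was at 6.72, 7.67, 6.78, 7.76 and 7.77 in WT and at 7.52, 7.90 and 8.26 in Ts1Cje. WT animals 60 and 65 lay about a unit below the other WT animals, which the Ts1Cje animals overlapped (difference 0.54, SE 0.218, limma adjusted p = 1), and the difference was 0.31 without animals 60 and 64. Mx2, listed as a transcribed pseudogene inside the segment and thus not among the 69, was at 4.24, 4.10, 4.27, 4.17 and 3.93 against 4.29, 4.56 and 4.90. The groups did not overlap, and the difference of 0.43 was not called (limma adjusted p = 0.611). It was 0.46 without animals 60 and 64, also not called. Mx1, also on chromosome 16 and not among the 69, was dim and differed by 0.29, with 1 Ts1Cje animal above all WT animals.

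Nuclear proteins made up a further group. Son, a splicing factor, was at 9.50, 9.84, 9.70, 9.67 and 9.75 in WT and at 9.97, 10.14 and 10.29 (lowest, median and highest) in Ts1Cje, and rose by 0.45 (SE 0.0702, limma adjusted p = 0.0444). The chromatin reader Brwd1 rose by 0.41 and the transcription factor Ets2 by 0.44, both without overlap. Scaf4, which binds RNA polymerase II, rose by 0.36 with all animals (adjusted p = 0.0462), and its adjusted p was 0.0671 without animals 60 and 64. Morc3, a nuclear ATPase, differed as much as Son (0.46) but was not called. Its values were 7.37, 7.91, 7.85, 7.74 and 7.97 in WT and 7.57, 8.33 and 8.44 in Ts1Cje, with WT animal 60 and Ts1Cje animal 64 the lowest of their groups by far. Without both animals Morc3 rose by 0.50 (SE 0.0526, adjusted p = 0.00595). The nucleosome-binding protein Hmgn1 differed by 0.19 (adjusted p = 1) and the zinc finger gene Prdm15 by 0.14 (0.971), although every Ts1Cje array lay above every WT array for Prdm15.

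Among segment genes of metabolism and protein handling, also grouped by known roles, Gart, Vps26c, Get1, Dop1b and Urb1 rose, and Atp5o, Psmg1, Cbr1 and Cbr3 were not called with all animals. Gart, an enzyme of purine synthesis, was at 8.44, 8.40, 8.53, 8.46 and 8.44 in WT and at 8.70, 8.75 and 8.86 in Ts1Cje, a rise of 0.30 (SE 0.0447, limma adjusted p = 0.0374). Atp5o, a subunit of the mitochondrial ATP synthase, differed by 0.40 without overlap and was called only without animals 60 and 64 (adjusted p = 0.121 and 0.0186). The other 33 measured genes of oxidative phosphorylation had a median of -0.0245 (-0.0061 without animals 60 and 64), 9 were above 0 and 0 were called. Psmg1, which helps assemble the proteasome, followed the same course (0.29, adjusted p = 0.304 with all animals and 0.0449 without those animals). Of the other 19 proteasome and heat shock genes outside the segment, 0 were called. In membrane traffic, Vps26c, of the endosomal recycling machinery, rose by 0.47 (adjusted p = 0.0209), Get1, which inserts proteins into the endoplasmic reticulum membrane, by 0.44 (0.0395) and Dop1b, of Golgi traffic, by 0.39 (0.0214). Urb1, of ribosome assembly, rose by 0.37 and the cilia gene Cfap298 by 0.36. The ubiquitin ligase gene Ttc3 (0.33) and Cryzl1 (0.47), related to quinone reductases, had groups without overlap and were called without animals 60 and 64. The carbonyl reductase gene Cbr1 (0.31) overlapped through animal 64, and its neighbour Cbr3 (0.10) was dim, with 4 of 6 Ts1Cje animals above all WT animals.

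**Figure D3:**
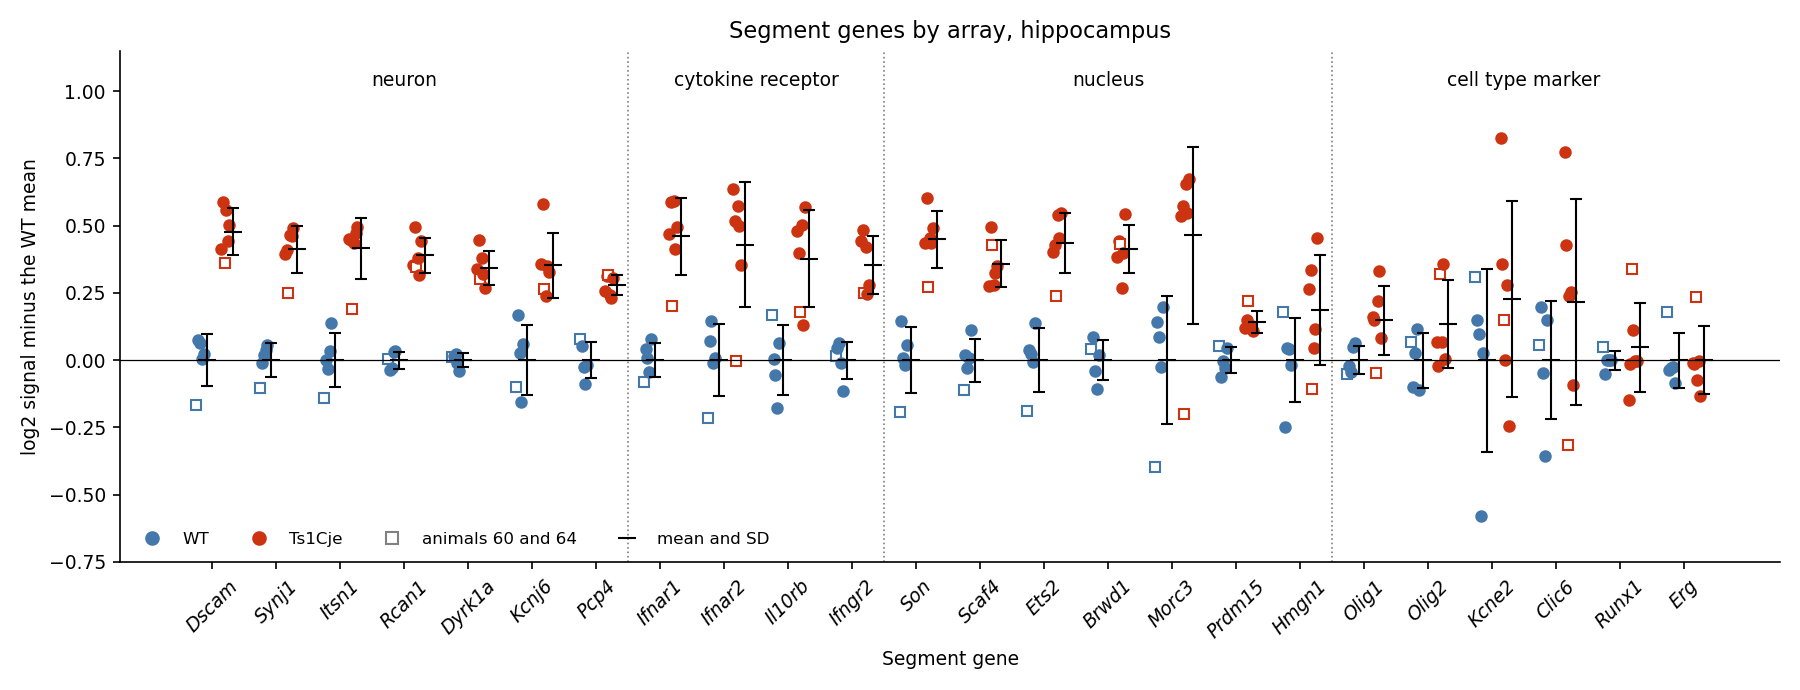
Log2 signal of each array minus the mean of the 5 WT arrays (y axis) for 24 segment genes grouped by role; blue is WT, red Ts1Cje, open squares are animals 60 and 64, and bars give mean and SD. The groups separate for Dscam, Synj1, Itsn1, Rcan1, Dyrk1a, Kcnj6 and Pcp4, Ts1Cje animal 64 falls among the WT animals for Ifnar2 and Morc3, and the groups overlap for Olig1, Olig2, Kcne2, Clic6, Runx1 and Erg.

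Some segment genes mark single cell types. Olig1 and Olig2 are transcription factors of the oligodendrocyte lineage. Olig1 was at 9.40, 9.43, 9.41, 9.50 and 9.51 in WT and at 9.40, 9.60 and 9.78 (lowest, median and highest) in Ts1Cje. Olig2 was at 7.92, 7.75, 7.88, 7.97 and 7.74 against 7.83, 7.92 and 8.21. The groups overlapped in both, and the differences of 0.15 and 0.13 were among the lowest of the bright segment genes (limma adjusted p = 1 for each). Mature oligodendrocyte markers had a median difference of 0.046, with 11 of 13 above 0 and 0 called, and array means that ran in WT from 9.42 to 9.53 and in Ts1Cje from 9.38 to 9.72. The 7 precursor markers outside the segment had a median of -0.0031 (-0.040 without animals 60 and 64). Erg, of endothelium, and Runx1, of microglia and blood cells, were dim, and their differences were 0.00036 and 0.047, with signs that turned negative without animal 64 and, for Erg, without any 1 of WT 62, 65, 95 or 98.

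Kcne2, a potassium channel subunit, and Clic6, of a chloride channel family, are markers of the choroid plexus, the epithelium that makes cerebrospinal fluid and borders the hippocampus. Kcne2 was at 7.30, 7.14, 7.09, 6.41 and 7.02 in WT and at 6.75, 7.21 and 7.82 in Ts1Cje, with wide overlap and a difference of 0.23 (SE 0.19, limma adjusted p = 1). The 13 choroid plexus markers outside the segment moved the other way, all of them below 0 with a median of -0.22 and 0 called. Without animals 60 and 64 their median was -0.16. Their array means, 8.29 to 8.83 in WT and 7.99 to 8.76 in Ts1Cje, overlapped and varied from animal to animal within each group. Set against the mean of these markers on the same array, Kcne2 was at -1.53, -1.57, -1.43, -1.87 and -1.52 in WT and at -1.31 to -0.94 in Ts1Cje. All 6 Ts1Cje animals then lay above all WT animals, by 0.46 on average (exact two-sided permutation test, p = 0.00216, the smallest that 462 splits allow, adjusted p = 0.013 over 6 genes). The same step gave 0.44 for Clic6 (p = 0.0173, exact permutation test; adjusted 0.0519; 5 of 6 animals above all WT), where the gene alone differed by 0.21. Against lineage markers Olig1 differed by 0.13 (exact permutation p = 0.026, adjusted 0.0519) and Olig2 by 0.11 (0.316), against endothelial markers Erg by 0.031 (0.775), and against microglial markers Runx1 by 0.060 (0.725). This step was chosen after seeing the data, so its p-values describe these arrays and do not stand as a test. The lower marker means in Ts1Cje are part of the differences of Kcne2 and Clic6.

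**Figure D4:**
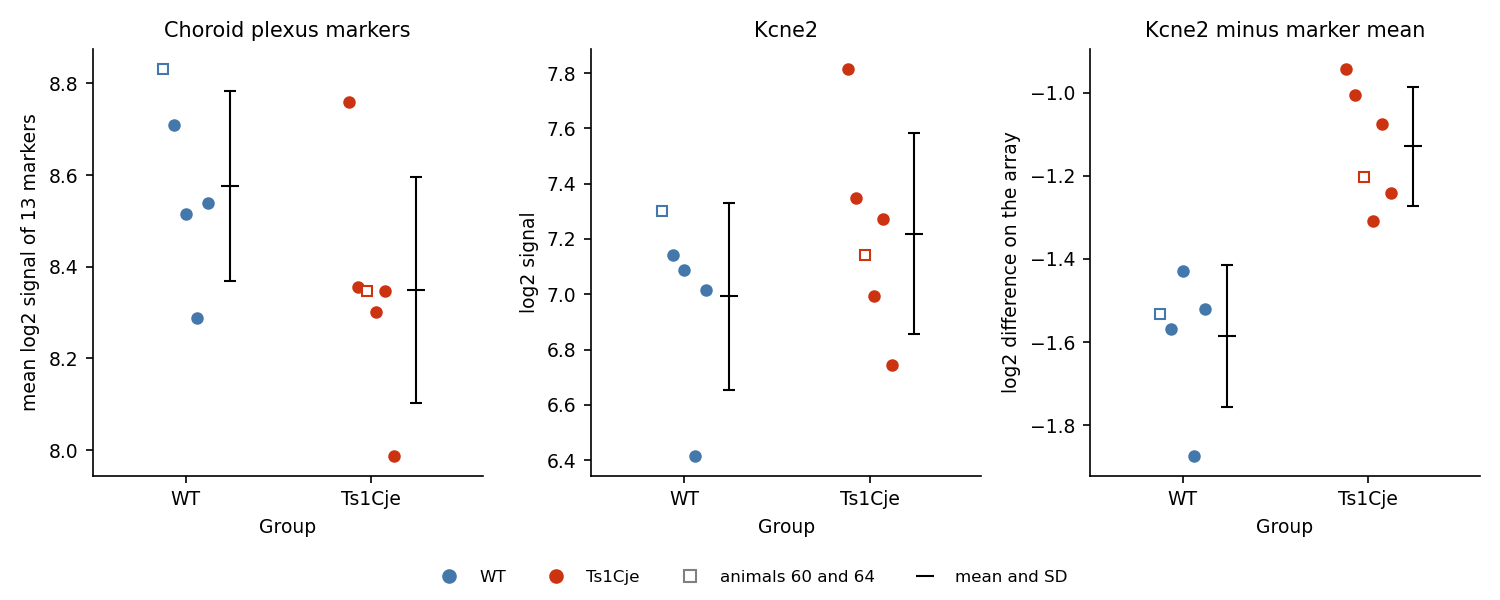
Mean log2 signal of 13 choroid plexus markers outside the segment (left), log2 signal of Kcne2 (middle) and their difference on each array (right), in 5 WT (blue) and 6 Ts1Cje (red) hippocampus arrays; open squares are animals 60 and 64 and bars give mean and SD. The groups overlap for the markers and for Kcne2 itself, and separate at -1.87 to -1.43 against -1.31 to -0.94 for the difference.

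Outside the segment and distal chromosome 12, the calls beside Sod1 were for genes with low signals. Fsbp, a DNA-binding protein, was at 4.13, 4.20, 4.18, 4.44 and 4.12 in WT and at 4.48, 4.83 and 5.00 in Ts1Cje (difference 0.58, limma adjusted p = 0.0462; 0.159 without animals 60 and 64). Vmn2r110, a vomeronasal receptor, was at 2.99, 2.84, 2.93, 3.27 and 2.88 against 3.39, 3.49 and 3.60 (0.51, adjusted p = 0.0385; 0.0847 without those animals). The groups did not overlap in either gene. In cortex the differences were -0.15 for Fsbp and -0.068 for Vmn2r110, both uncalled. Itgb8 (limma adjusted p = 0.587) and every segment gene (lowest 0.0921, Synj1) were uncalled in cortex too. Without animals 60 and 64 the uncharacterised chromosome 16 gene 2610318N02Rik, outside the segment, rose by 0.46 (adjusted p = 0.0186) and the cartilage protein gene Ucma by 0.50 (0.0192), while Rfx5, a transcription factor for class II histocompatibility genes, fell by 0.33 (0.0432) and the tubulin cofactor gene Tbca fell by 0.24 (0.0328). Frg2f8 fell by 0.78 and the olfactory receptor gene Olfr869 rose by 0.38 in that setting. With all animals none of these 6 was called, and the difference of Tbca was -0.16 and that of Frg2f8 -0.39 (limma adjusted p = 1 for each). Only 2610318N02Rik and Rfx5 of them had groups without overlap. The signals of 2610318N02Rik (2.96 to 3.60) and Olfr869 (2.49 to 3.51) were low. Their differences in cortex were -0.069 and -0.060, both uncalled like those of the segment genes. Among genes not called in either setting, the repressor gene Zhx2 had a difference of -0.22 without overlap (8.02 to 8.14 in Ts1Cje, 8.21 to 8.35 in WT; adjusted p = 0.248).

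Gene lists for hippocampal cell types gave 0 calls outside the segment. Markers of dentate granule neurons had a median difference of -0.13, with 2 of 12 above 0 and array means that ran in WT from 8.18 to 8.41 and in Ts1Cje from 8.04 to 8.34, which overlapped. The lactase gene Lct, a granule neuron marker in mouse, was at 8.23, 8.37, 8.54, 8.60 and 8.56 in WT and at 7.92, 8.26 and 8.35 in Ts1Cje (difference -0.26, SE 0.088, limma adjusted p = 1; -0.26 without animals 60 and 64). Glis3 was 0.20 lower on average with overlap (adjusted p = 1). Over the 12 granule neuron markers the differences ran from -0.26 (Lct) to 0.30, so the largest in size was a rise. Markers of CA1 (median -0.040, 2 of 8 above 0) and CA3 neurons (-0.029, 1 of 10) lay nearer to the median of all genes (-0.0064). They lay nearer still to that of genes brighter than the median gene (-0.021). Of those brighter genes 3400 of 10119 were above 0. Whether brightness has a part in the low counts of these lists was not tested. Adult neurogenesis genes had 1 of 19 above 0 and a median of -0.054. Among them Ccnd2, a cyclin needed for the division of granule neuron precursors, was at 9.67, 9.61, 9.62, 9.58 and 9.77 in WT and at 9.43, 9.51 and 9.57 in Ts1Cje. All Ts1Cje arrays were lower, though the highest was close to the lowest WT array (difference -0.14, SE 0.0502, limma adjusted p = 1). Genes of sonic hedgehog and Wnt signalling had 5 of 29 above 0 and a median of -0.051, and the Wnt antagonist Sfrp1 the largest difference, -0.25 (adjusted p = 1).

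Glial, vascular and border cells differed by list. Astrocyte markers had a median of -0.052 (2 of 14 above 0), microglial markers -0.0050 (6 of 13), endothelial markers -0.028 (2 of 12), ependymal markers -0.087 (1 of 10) and meningeal markers -0.12 (3 of 10). Pericyte markers had a median of -0.088, with 1 of 10 above 0. Leaving out animals 60 and 64 put the median at -0.032 for astrocytes, -0.0027 for microglia and -0.13 for pericytes. Abcc9, a potassium channel subunit of pericytes, was at 6.82, 6.82, 6.80, 6.82 and 6.94 in WT and at 6.59, 6.65 and 6.80 in Ts1Cje (difference -0.15, adjusted p = 1). The pericyte receptor gene Pdgfrb differed by -0.18 (adjusted p = 0.951), with 5 of 6 Ts1Cje animals below all WT animals. The choroid plexus gene with the lowest p was Kl, at 10.05, 10.24, 10.00, 9.79 and 10.03 in WT and 9.34, 9.71 and 10.17 in Ts1Cje (adjusted p = 1). No list other than the segment and distal chromosome 12 held a called gene outside these regions and Sod1.

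Synaptic lists stayed near 0. Ionotropic glutamate receptors had a median of -0.029 (8 of 27 above 0), and the NMDA receptor subunit gene Grin2c the lowest p of them (difference -0.13, adjusted p = 1, 5 of 6 Ts1Cje animals below all WT). GABA receptors and transport had a median of -0.0040 (8 of 16), synaptic vesicle release -0.0083 (11 of 26) and kinases and scaffolds of long-term potentiation -0.013 (9 of 25). Without animals 60 and 64 these last 3 medians turned positive, to 0.0063, 0.0078 and 0.0019. Interneuron markers had a median of 0.031 with 11 of 15 above 0, and 0.057 without those animals. Among them Pvalb was lower by 0.12 on average and not called, with 4 of 6 Ts1Cje animals below all WT animals. The serotonin receptor gene Htr3a, which marks a class of interneurons, was at 8.03, 7.72, 8.01, 8.00 and 7.87 in WT and at 8.10, 8.16 and 8.19 in Ts1Cje, without overlap (difference 0.22, SE 0.0598, limma adjusted p = 0.725). The muscarinic receptor gene Chrm2 was at 7.93, 8.02, 7.86, 7.93 and 7.94 against 8.06, 8.14 and 8.21, also without overlap (0.20, adjusted p = 0.464). Activity-dependent immediate early genes had 26 of 30 above 0 and a median of 0.033. Npas4, a transcription factor induced by neuronal activity, was at 7.09, 6.80, 6.58, 7.34 and 7.36 in WT and at 7.29, 7.49 and 7.98 in Ts1Cje, with 4 of 6 Ts1Cje animals above all WT (difference 0.54, SE 0.172, limma adjusted p = 1). Cytosolic ribosome genes, 16 of 35 measured, had a median of -0.084 with 5 above 0, while their mean was 0.0031. Rps3 was 0.16 lower on average, Rps2 0.68 higher and Rps6 0.70 higher (adjusted p = 1 for each), and both groups ranged widely for Rps2 and Rps6. Rps2 and Rps6 were named after their values were seen.

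**Figure D5:**
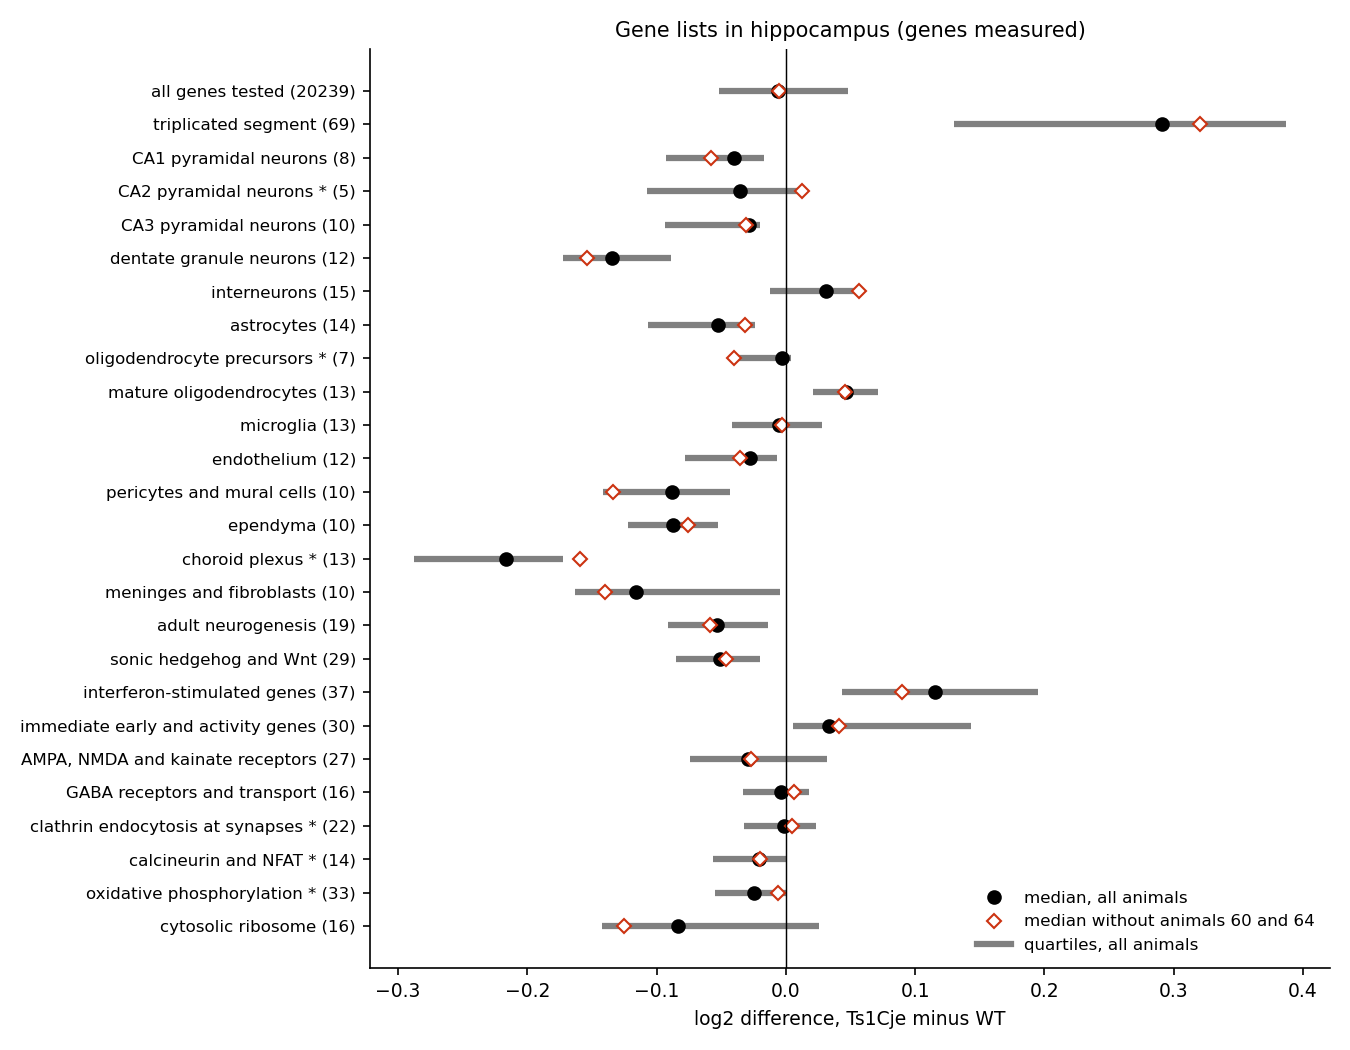
Median log2 difference between Ts1Cje and WT hippocampus (x axis) of 25 gene lists and of all genes tested, with the number of genes measured in brackets; grey bars span the quartiles, black points use all animals, red diamonds leave out animals 60 and 64, and an asterisk marks lists shown without their segment genes. The segment stands at 0.29, the choroid plexus list without its segment genes at -0.22 (-0.16 without animals 60 and 64), and most lists lie within 0.1 of 0.

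The differences in hippocampus were set beside those in the cortex of the same animals. A fit of all 22 arrays tested whether the difference between genotypes differed between regions, and called 0 of 20239 genes (0%), with 260 at an unadjusted p under 0.05 by limma. With the animal as a replicate block it also called 0 genes. A paired limma fit compared each animal's hippocampus value minus its cortex value between genotypes. It called 0 genes, with 850 at an unadjusted p under 0.05. Among the segment genes 3 were at that level, and 4 in the paired fit. The segment had a median difference of 0.37 in cortex, and 55 of 69 genes were above 0 in both regions. No segment gene was called in cortex, where the lowest limma adjusted p among them was 0.0921 (Synj1). The median over segment genes of the hippocampus difference minus the cortex difference was -0.021, against -0.0091 over all genes. Dnah11 differed by 2.88 in cortex and 3.12 in hippocampus, a gap of 0.245 (SE 0.159). Itgb8 differed by -0.81 in each region and was not called in cortex (limma adjusted p = 0.587). Tmem196 differed more in cortex, by -0.67 against -0.41, and Pcp4 less, by 0.13 against 0.28, and neither gap between regions was called (limma adjusted p = 1 for each). In the fit of all 22 arrays without the block, the gene with the lowest p for the gap was Gm5528. It was near the bottom of the signal range, at 1.68 to 1.96 in WT hippocampus and 1.86 to 2.91 in that of Ts1Cje (limma adjusted p = 1 for the gap). H2-DMb1, of class II antigen presentation, followed it in that fit, with -0.67 in hippocampus and 0.87 in cortex and Ts1Cje values that ran from 4.17 to 5.63.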

How the data were processed

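Arrays were processed with RMA, per the submitters' processing notes. No source used here states its version, probe definition or background settings. The deposited values are log2 signals per Entrez gene, 1 per array for 21225 features; 51.9% of features had identical values on 2 or more hippocampus arrays, and 0 pairs of arrays were identical. The 20239 features with 1 symbol matched the RefSeq table of GRCm38.p6, used for names, gene order and the printed start regions; 986 had no symbol. No filter on dim genes was applied. The members and lists were chosen with earlier results of these data known.

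Fits used limma 3.58.1 in R 4.3.3 (lmFit, eBayes, default prior, two-sided, Benjamini-Hochberg over 20239 genes), on the 11 hippocampus arrays or, for the regions, on all 22 arrays in 4 groups. The limma fit of the hippocampus arrays was tried on simulated data with independent normal errors. The changes planted there were larger than those of the segment genes. Lists (41, with 650 of 728 genes measured) are described by counts and medians beside those of all genes. P-values of the hippocampus fits measure the spread between animals. The fit of 22 arrays without the block treats the arrays of an animal as independent, though their consensus correlation was 0.436.

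Named genes were the called ones, those called outside the segment without animals 60 and 64, the 6 highest and 6 lowest bright segment genes, a set of segment genes of interest, distal chromosome 12 genes, those bordering the segment, the 5 lowest p outside it, 2 per list and 5 for the regions; the text gives a selection. The rule for chromosome 12 ran from Itgb8 to Rapgef5; Macc1 and Tmem196 lie further out and were added.

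Pairing comes from the animal numbers in the titles. An animal's hippocampus and cortex arrays, after group means were removed, correlated at a median r of 0.265 (0.0523 to 0.761), best among cortex arrays for 7 of 11 animals. The titles of 2 arrays give WT 60 where their description gives 61; the title was used. Alternatives were a trend and robust prior, array weights, quantile normalization, median centring, leaving out the dimmest genes, 1 fit of all arrays, every feature, adjusted p under 0.1, leaving out each animal, and leaving out animals 60 and 64.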

Additional observations from a re-analysis of the deposited data

Results flagged for a closer look

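Single arrays far from the rest of their group, by Dixon's test at the 95% level, were found in 35 of the 244 groups of values checked. Chance gives about 1 in 20 for independent groups. These groups share the same 11 arrays, so that rate is no yardstick for the count. Ts1Cje animal 64 made up 19 of the 35 and WT animal 60 made up 11.

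For segment genes, Ts1Cje animal 64 was low for Itsn1 (9.66), Morc3 (7.57), Vps26c (8.50) and Ttc3 (11.14) and high for Prdm15 (8.17) and Erg (6.71). WT animal 60 was low for Dscam (9.39) and high for Erg (6.65), and Ts1Cje animal 63 was high for Kcnj6 (8.75). Beside the segment, Sod1 was high in WT animal 60 (11.52) and in Ts1Cje animal 64 (12.12), and A630089N07Rik was low in animal 64 (8.09).

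On distal chromosome 12, Itgb8 was low in animal 64 (8.15), Sp4 low in animal 60 (7.65), Abcb5 high in animal 60 (4.33) and Sp8 high in Ts1Cje animal 87 (5.37). Elsewhere Fsbp was high in WT animal 95 (4.44) and Abcc9 in WT animal 98 (6.94). Animal 60 was low for Tbca (8.27) and Frg2f8 (4.62) and high for Olfr869 (2.77) and Rps3 (9.94). Animal 64 was low for Rfx5 (6.94) and high for Tbca (8.47) and Olfr869 (3.51).

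Among list means, animal 64 was low for the AMPA, NMDA and kainate receptors (9.58), GABA receptors and transport (10.01), clathrin endocytosis (10.06), long-term potentiation kinases and scaffolds (10.04), oxidative phosphorylation (9.86) and the proteasome and heat shock genes (8.70), and high for striatal neuron markers (8.45). Animal 60 was low for GABA receptors and transport (10.16) and high for thalamic neuron markers (7.84). Ts1Cje animal 87 was high for interferon-stimulated genes (7.22). Without animals 60 and 64 the median difference of the thalamic list went from -0.054 to 0.015 and that of the proteasome and heat shock list from -0.016 to 0.030.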

How the results depend on the processing

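Array weights, which gave animals 60 and 64 the lowest weight, called 54 genes, 32 in the segment and 22 outside it, with a segment median of 0.331. Leaving out animals 60 and 64 called 37 (26 and 11), with a median of 0.320. Quantile normalization gave a median of 0.313, and leaving out the dimmest genes 0.333. Leaving out 1 animal gave 1 to 35 calls, 0 to 28 in the segment and 1 to 7 outside it, with medians of 0.274 to 0.313. The other alternatives kept these counts within 1.5 times. No gene's difference between regions was called by limma under any alternative, including the animal as a replicate block (0 genes).

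Among the genes named, signs turned for 7 near 0. With array weights Runx1 was at -0.0054, Kcnj15 at -0.013, Erg at -0.0014, Rapgef5 at 0.017 and Sp8 at 0.043, and with centred arrays Sp8 was at 0.010. Without animals 60 and 64, Erg was at -0.0020, Kcnj15 at -0.028, Itgb2l at -0.0057, Rapgef5 at 0.028 and Sp8 at 0.060. With 1 animal left out, Sim2 ranged from -0.14 to 0.013, Sp8 from -0.064 to 0.054, Erg from -0.047 to 0.045, Runx1 from -0.011 to 0.086, Kcnj15 from -0.044 to 0.049, Itgb2l from -0.047 to 0.10 and Rapgef5 from -0.052 to 0.0063. The cause was not tested. How far signal over background limits the dim genes was not tested.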
